A study of Rattus norvegicus with 6 samples.

Results

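The tricarboxylic acid (TCA) cycle enzymes described here are the products of 9 rat genes, Cs, Idh3a, Idh3g, Ogdh, Suclg1, Sdha, Sdhb, Mdh1 and Mdh2. They were taken as every non-control probe of the array whose gene name was 1 of these symbols, which gave 10 probes of 30367, as Ogdh had 2 probes and each other gene had 1. The genes were chosen by name, with earlier results of these data known, among 19297 genes with a symbol on the array. Gene expression was measured in the heart primordium of Wister rat embryos (spelling of the labels; Wistar rats) at embryonic day 10 (E10), the day on which the heart starts to beat. The pre-heartbeat group was made up of primordia with a flat centre and the post-heartbeat group of primordia with a raised centre from embryos with as many or slightly more somites, so that shape and somites, as signs of beating, set the groups. Each group had 3 samples, described in the labels as biological replicates, with 1 array for each sample, and the labels name no treatment or genetic change. How many primordia went into each sample for the arrays is not given in the sources used here.

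The TCA cycle runs in the mitochondrial matrix, where it oxidizes the acetyl group of acetyl-CoA to carbon dioxide and passes the electrons to the respiratory chain as NADH and as reduced flavin. Citrate synthase joins acetyl-CoA to oxaloacetate, and a series of dehydrogenases then returns the carbon skeleton to oxaloacetate, which can accept the next acetyl group. The adult heart draws most of its ATP from this route, whereas the early embryonic heart is known to rely strongly on glycolysis. Of the 9 genes, Mdh1 encodes the cytosolic malate dehydrogenase, which is not an enzyme of the matrix cycle itself but carries out the cytosolic step of the malate-aspartate shuttle, and it is kept here as a member by name.

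Each probe is a 60-base oligonucleotide, printed in 2 spots on each array. The opening 30 bases of 6 probes are shown, because these probes carry the comparisons between subunits, between isoenzymes and between the probes of a single gene. They were read 5′ to 3′ from the array file, all in lower case, with the position of the whole probe in the rn4 genome from the same file.
Ogdh, probe that stood for the gene, chr14:87090708-87090767, plus strand: gcccccctgtgtccatgacgctctttgctt
Ogdh, other probe, chr14:87091041-87091100, plus strand: tcagtccttgtcacccatcaagtcacagat
Idh3a, chr8:58155604-58155663, plus strand: agacttaattgcagaggtggggtttactca
Idh3g, chrX:159701384-159701443, minus strand: tgcagtttgctcagtttgtctgtaggactc
Mdh1, chr14:102261426-102261485, minus strand: gatgatgtaaaaaatgtcattatctgggga
Mdh2, chr12:22025592-22025651, minus strand: tacaaccccaacaagatattcggtgtgaca
Over the whole probes, the longest run of bases in common was 6 between Mdh1 and Mdh2, 5 between Idh3a and Idh3g and 5 between the probes of Ogdh, which lie 273 bases apart. Among all pairs of the 10 probes, the longest was 9 bases, between Idh3a and Sdhb. Which exon or untranslated region a probe falls in was not analysed here.

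Signals are given as log2 of the background-subtracted intensity less the 75th percentile of the same array, so that 0 is the level of the 75th percentile. This percentile was between 1146 and 1702 intensity units over the 6 arrays. The arrays lay on 2 slides, with pre-heartbeat array 1 and post-heartbeat arrays 1 and 2 on slide 1 and the others on slide 2, and the slides were separated by the leading principal component (60.3% of variance), the groups by the next (16.6%). All 10 probes were well above background on all 6 arrays, with 0 saturated spots and 0 spots marked as outliers among 120. The arrays held heart tissue by its markers: all 15 heart muscle genes looked up were detected, and all 15 had a higher post-heartbeat mean (median log2 fold change 0.61), where 46.4% of tested genes did. Of these 15, 7 had an unadjusted limma p under 0.05, as did 8.05% of tested genes, and 0 passed an adjusted p under 0.05, or 4 when slides were blocked. In whole tissue, a lower share of cells that express a gene and less of its RNA per cell cannot be told apart. With 3 arrays in each group, 10 splits are possible, so the exact two-sided permutation test used for single genes cannot give a p under 0.1.

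None of the 9 genes changed between the groups at a limma adjusted p under 0.05 (Benjamini-Hochberg over 19299 tested probes), a threshold passed by 0.189% of 12685 tested genes, and 0 had an unadjusted limma p under 0.05, against 8.05% of tested genes. The log2 fold changes, post-heartbeat less pre-heartbeat, lay between -0.077 for Idh3g and 0.21 for Idh3a, with a median of 0.032, beside -0.022 for all tested genes. The mean was higher in the post-heartbeat group for 6 of the 9 genes and lower for 3, where 46.4% of tested genes were higher. Without pre-heartbeat array 1, 4 of the 9 were higher (median -0.035), and without pre-heartbeat array 2 all 9 were (median 0.12). In all 9 genes the values of the groups overlapped. The groups were apart in 13.2% of tested genes, a share to which 0 of 9 is near. For 8 of the 9 genes the whole 95% limma interval lay within 1.5 fold in either direction, as it did for 46.2% of tested genes. The interval of Idh3a, whose spots read from 227 to 339 intensity units, reached above that limit.

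**Figure D1:**
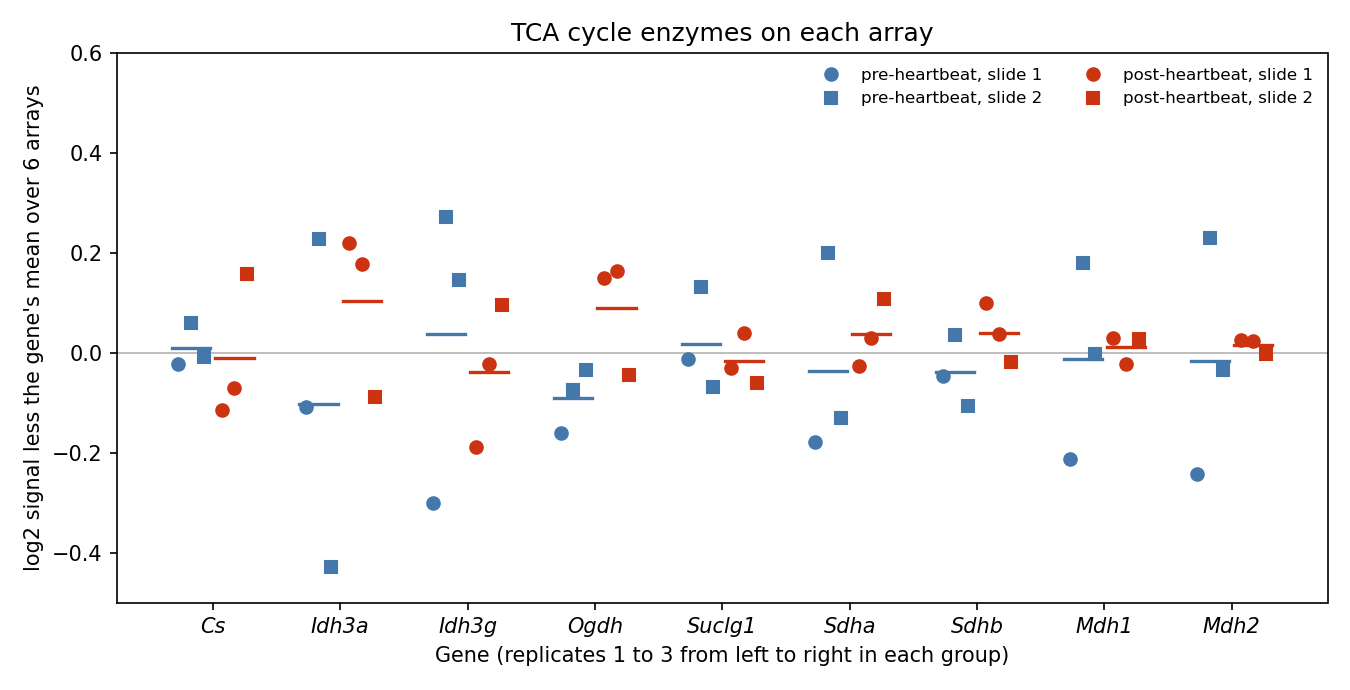
log2 signal of the 9 TCA cycle enzymes on each of the 6 arrays, less the mean of the gene over the arrays; points are arrays, circles are slide 1 and squares slide 2, colours are the groups, and horizontal lines are group means. The groups overlap in all 9 genes, and pre-heartbeat array 1 lies below the mean of the gene in all 9.

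Cs encodes citrate synthase, which makes citrate from acetyl-CoA and oxaloacetate and is widely used as a marker of mitochondrial content. Its signal was 2.50, 2.58 and 2.51 on pre-heartbeat arrays 1 to 3 and 2.41, 2.45 and 2.68 on post-heartbeat arrays 1 to 3. The post-heartbeat group held both the lowest and the highest array. The means were 2.53 ± 0.045 (SD, n = 3) and 2.51 ± 0.15 (SD, n = 3), a log2 fold change of -0.019 with a 95% interval of -0.35 to 0.31 (limma adjusted p = 0.973, exact permutation p = 0.9). Blocking the fit by slide gave 0.031, so its sign turned.

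Idh3a encodes the catalytic subunit of the NAD-dependent isocitrate dehydrogenase, which makes 2-oxoglutarate in the cycle, and Idh3g a regulatory subunit of the same enzyme. The signal of Idh3a was -2.38, -2.04 and -2.70 on pre-heartbeat arrays 1 to 3 and -2.05, -2.09 and -2.36 on post-heartbeat arrays 1 to 3. Pre-heartbeat array 2 was level with the 2 highest post-heartbeat arrays, and pre-heartbeat array 3 was below all others. The group means differed by 0.21 on the log2 scale (95% interval -0.27 to 0.68, limma adjusted p = 0.866, exact permutation p = 0.5), or 1.15 fold, and it was the largest of the members. Without pre-heartbeat array 3 it was 0.043, and without pre-heartbeat array 2 it was 0.37.

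For Idh3g, the signal was 3.32, 3.89 and 3.77 on pre-heartbeat arrays 1 to 3 and 3.43, 3.60 and 3.72 on post-heartbeat arrays 1 to 3. Both the highest and the lowest array were pre-heartbeat arrays, so the post-heartbeat values lay inside the range of the other group. The log2 fold change was -0.077 (95% interval -0.53 to 0.37, limma adjusted p = 0.913, exact permutation p = 0.7). Idh3g was the member with the largest difference between the slides, 0.36 higher on slide 2 (limma adjusted p = 0.132), and with the slide as a block the group difference was 0.042. The difference between the fold changes of Idh3a and Idh3g was 0.28 on the log2 scale, and the per-array difference of the 2 signals overlapped between the groups (exact permutation p = 0.4, 1 after Benjamini-Hochberg adjustment over 3 pairs of genes).

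Ogdh encodes the E1 component of the 2-oxoglutarate dehydrogenase complex, which makes succinyl-CoA. The probe that stood for the gene read 1.02, 1.11 and 1.14 on pre-heartbeat arrays 1 to 3 and 1.33, 1.34 and 1.14 on post-heartbeat arrays 1 to 3. The post-heartbeat arrays of slide 1 were above all pre-heartbeat arrays, and the post-heartbeat array of slide 2 lay within the pre-heartbeat range. The log2 fold change was 0.18 (95% interval -0.14 to 0.50, limma adjusted p = 0.866, exact permutation p = 0.2), with the smallest unadjusted limma p of the 9 genes, 0.227.

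The other Ogdh probe read 0.34, 0.60 and 0.58 on pre-heartbeat arrays 1 to 3 and 0.66, 0.64 and 0.63 on post-heartbeat arrays 1 to 3. On this probe the groups did not overlap, and the post-heartbeat arrays lay within a narrow range. Its log2 fold change was 0.14 (95% interval -0.19 to 0.47, limma adjusted p = 0.866, exact permutation p = 0.1, the smallest the design allows). Both probes placed the post-heartbeat mean higher, and in neither did the fold change pass the test. After each probe was centred on its own mean, the 2 probes differed by up to 0.098 on an array, which is not small beside these fold changes. Slide 2 less slide 1 was 0.12 on this probe and -0.048 on the probe that stood for the gene.

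Suclg1 encodes the alpha subunit of succinyl-CoA ligase, which couples the release of succinate to the making of a nucleoside triphosphate. The signal was 4.68, 4.83 and 4.63 on pre-heartbeat arrays 1 to 3 and 4.67, 4.74 and 4.64 on post-heartbeat arrays 1 to 3. The arrays spanned a range of 0.20, the smallest of the 9 genes, and the 3 post-heartbeat values lay inside the pre-heartbeat range. This gave a log2 fold change of -0.034 (95% interval -0.35 to 0.28, limma adjusted p = 0.948, exact permutation p = 0.7).

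Sdha and Sdhb encode the flavoprotein and the iron-sulfur subunit of succinate dehydrogenase, the enzyme that belongs both to the cycle and to the respiratory chain as complex II. The signal of Sdha was 2.64, 3.02 and 2.69 on pre-heartbeat arrays 1 to 3 and 2.79, 2.85 and 2.93 on post-heartbeat arrays 1 to 3. Pre-heartbeat array 2 was the highest array and the other pre-heartbeat arrays were the lowest. The log2 fold change was 0.073 (95% interval -0.29 to 0.44, limma adjusted p = 0.900, exact permutation p = 0.6). It was 0.19 without pre-heartbeat array 2 and 0.0025 without pre-heartbeat array 1.

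The signal of Sdhb was 2.79, 2.87 and 2.73 on pre-heartbeat arrays 1 to 3 and 2.93, 2.87 and 2.82 on post-heartbeat arrays 1 to 3. Pre-heartbeat array 2 reached the middle post-heartbeat value, and the other pre-heartbeat arrays were below all post-heartbeat arrays. The log2 fold change was 0.078 (95% interval -0.23 to 0.38, limma adjusted p = 0.876, exact permutation p = 0.2), close to that of Sdha. The fold changes of Sdha and Sdhb differed by -0.0049 on the log2 scale (exact permutation p = 1), while the difference of their signals on an array had an SD of 0.15 before and 0.13 after the heartbeat.

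Mdh2 encodes the mitochondrial malate dehydrogenase, which regenerates oxaloacetate and closes the cycle, and Mdh1 its cytosolic counterpart. The signal of Mdh2 was 1.85, 2.33 and 2.06 on pre-heartbeat arrays 1 to 3 and 2.12, 2.12 and 2.09 on post-heartbeat arrays 1 to 3. The post-heartbeat arrays were nearly level, and pre-heartbeat arrays 1 and 2 were the lowest and the highest of all. Its log2 fold change was 0.032 (95% interval -0.35 to 0.41, limma adjusted p = 0.958, exact permutation p = 0.7). The spots of this probe differed from each other by a median of 0.24 on an array, the largest gap of the 10 probes.

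The signal of Mdh1 was 2.23, 2.63 and 2.44 on pre-heartbeat arrays 1 to 3 and 2.48, 2.42 and 2.47 on post-heartbeat arrays 1 to 3. The order of the arrays at both ends was that of Mdh2, with pre-heartbeat array 1 lowest and pre-heartbeat array 2 highest. Between the groups, Mdh1 differed by a log2 fold change of 0.024 (95% interval -0.33 to 0.38, limma adjusted p = 0.968, exact permutation p = 0.8). Without pre-heartbeat array 1 the values were -0.077 for Mdh1 and -0.081 for Mdh2, and without pre-heartbeat array 2 they were 0.12 and 0.15, so that the sign of both turned without pre-heartbeat array 1. The fold changes of Mdh1 and Mdh2 differed by -0.0085 (exact permutation p = 0.8), and the difference of their signals varied little over the arrays, with an SD of 0.046 before and 0.038 after the heartbeat.

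**Figure D2:**
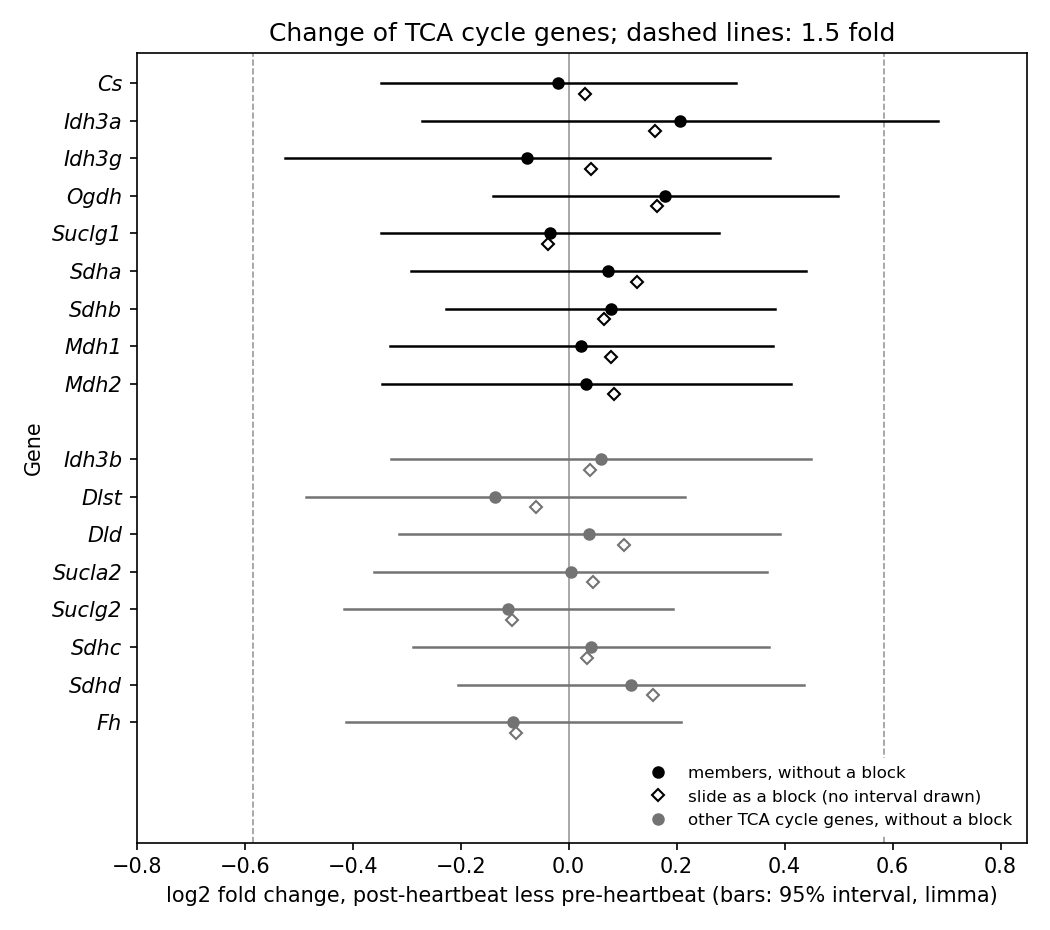
log2 fold change, post-heartbeat less pre-heartbeat, of the 9 TCA cycle enzymes (black) and of 8 other genes of the cycle (grey); filled circles are the limma values without a block, bars their 95% intervals, open diamonds the values with the slide as a block, and dashed lines 1.5 fold in either direction. Every interval includes 0, and the interval of Idh3a alone reaches past a dashed line.

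The spread of the members lay mainly in the pre-heartbeat arrays. Pre-heartbeat array 1 was below the mean of the gene in all 9 genes and was the lowest array in 5, and pre-heartbeat array 2 was above the mean in 8 and was the highest array in 6. Over all tested genes, pre-heartbeat array 1 was below the mean in 55.4% and lowest in 23.1%, and pre-heartbeat array 2 was above the mean in 59.2% and highest in 36.5%. Averaged over the 9 genes, the centred signal was -0.14 on pre-heartbeat array 1, 0.14 on array 2 and -0.075 on array 3, and from 0.018 to 0.040 after the heartbeat. The SD was larger in the pre-heartbeat than in the post-heartbeat group for 7 of the 9 genes, with medians of 0.20 and 0.067, and the same held for 61.6% of tested genes, with medians of 0.23 and 0.18. These values describe the arrays, as the 9 genes share the same 6 samples.

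Within slide 1, which held 1 pre-heartbeat array and 2 post-heartbeat arrays, the post-heartbeat mean was higher in 8 of the 9 genes, with a median difference of 0.20, where 56% of tested genes were higher. The pre-heartbeat array of that slide was array 1. Within slide 2, which held pre-heartbeat arrays 2 and 3 and post-heartbeat array 3, it was higher in 5 of the 9 genes, with a median of 0.010, where 43.8% of tested genes were higher. Idh3a, Ogdh, Sdha and Sdhb were higher within both slides, and 0 genes were lower within both, beside 26.4% and 26.7% of tested genes. Within slide 2 the differences of these 4 genes were small, at 0.011, 0.010, 0.073 and 0.017.

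**Figure D3:**
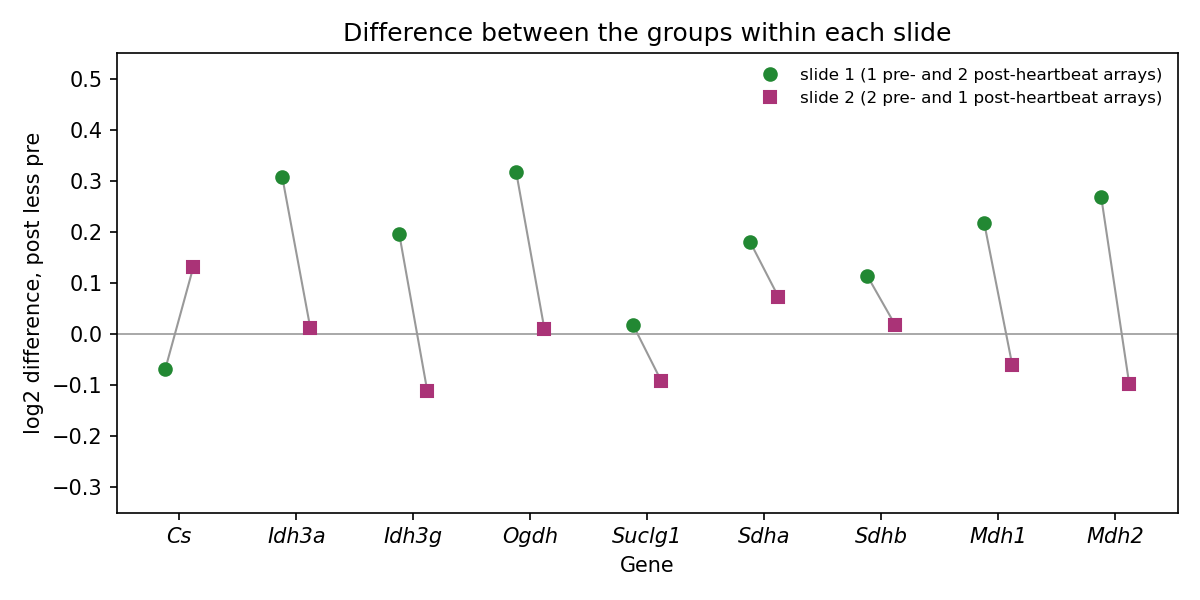
log2 difference between the mean of the post-heartbeat and of the pre-heartbeat arrays within slide 1 (circles) and within slide 2 (squares) for the 9 TCA cycle enzymes, with a line joining the slides of a gene. In 8 genes the difference is larger within slide 1, and Cs is the exception, with -0.069 on slide 1 and 0.13 on slide 2.

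When slides were blocked in limma, 8 of the 9 genes were higher in the post-heartbeat group and Suclg1 alone was lower (-0.038), with a median of 0.078, where 47.5% of tested genes were higher. Again 0 of the 9 passed an adjusted p under 0.05 (smallest 0.928, smallest unadjusted limma p 0.270), a threshold then passed by 2.04% of tested genes. Between the slides themselves, 0 of the 9 genes differed at a limma adjusted p under 0.05, where 13.2% of tested genes did. Idh3g had an unadjusted limma p of 0.0399 for the slide. In 5 of the 9 genes the slide difference was larger in absolute value than the group difference of the same fit. With the limits of 1.5 fold and an unadjusted p under 0.05 from the study's methods, applied here in both directions and not to rises alone, 0 of the 9 genes were selected, where 3.54% of tested genes were.

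A list of 8 other genes of the cycle, Idh3b, Dlst, Dld, Sucla2, Suclg2, Sdhc, Sdhd and Fh, was tested, and 0 had an unadjusted limma p under 0.05. Of these, 5 had a higher post-heartbeat mean and 3 a lower mean, where 46.4% of tested genes were higher. Their median log2 fold change was 0.021, and the block for the slide left the number at 5 with a median of 0.036. Without pre-heartbeat array 1 or without post-heartbeat array 2, 3 were higher, and without pre-heartbeat array 3, 2 were. The largest rise in value was that of Sdhd, a membrane anchor subunit of succinate dehydrogenase, which read 3.40, 3.52 and 3.46 on pre-heartbeat arrays 1 to 3 and 3.44, 3.60 and 3.68 on post-heartbeat arrays 1 to 3. Post-heartbeat array 1 lay within the pre-heartbeat range and the other post-heartbeat arrays above it, with a log2 fold change of 0.12 (95% limma interval -0.21 to 0.44). The largest fall in value was that of Dlst, the E2 component of the same complex as Ogdh, with -0.14 (95% limma interval -0.49 to 0.21). Within both slides, 3 of these genes, Dld, Sdhc and Sdhd, were higher and 3, Dlst, Suclg2 and Fh, were lower. Over all tested genes these shares were 26.4% and 26.7%. The groups were apart in 1 of the 8 genes, Suclg2, which was lower (log2 fold change -0.11). Over all tested genes, the groups were apart in 13.2%.

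Of 9 genes looked up for enzymes that catalyse related reactions outside the cycle, 7 were tested. Of these, 5 were higher and 2 lower, with a median log2 fold change of 0.13, where 46.4% of tested genes were higher. When slides were blocked, 4 were higher and the median was 0.042. Me3, a mitochondrial NADP-dependent malic enzyme, had the only unadjusted limma p under 0.05 (0.0237, adjusted 0.540). It read -6.38, -5.98 and -5.89 on pre-heartbeat arrays 1 to 3 and -5.46, -5.77 and -5.08 on post-heartbeat arrays 1 to 3, so the groups did not overlap. The probe was well above background on 1 of the 3 pre-heartbeat arrays and on all 3 post-heartbeat arrays, so that it entered the test only through the group in which it was higher. No fold is therefore given for it, and the limma adjusted p of 0.0421 that it had once slides were blocked rests on a group mostly at background. The counts of higher genes and the medians of this list, without and with the block, include Me3 and carry the same limit. The largest fall in value was that of Me2, an NAD-dependent malic enzyme, with -0.38 (95% limma interval -0.98 to 0.22). Me2 was well above background on all arrays but dim, from -5.94 to -4.79, a range that overlaps that of Me3. Its highest value was that of pre-heartbeat array 2, and the other pre-heartbeat arrays read -5.57 and -5.65. Besides Me3, the groups were apart for Idh2, which was higher (log2 fold change 0.33, limma adjusted p = 0.839). Over all tested genes, the groups were apart in 13.2%.

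All 7 genes of the pyruvate dehydrogenase complex and of pyruvate entry were tested. In all 7 the post-heartbeat mean was higher, where 46.4% of tested genes were higher. Their log2 fold changes lay between 0.081 for Pdhx and 0.21 for Pdhb, with a median of 0.13. When slides were blocked, 6 of the 7 were higher, where 47.5% of tested genes were. Pdhb, the beta subunit of the E1 component, read 1.58, 1.69 and 1.54 on pre-heartbeat arrays 1 to 3 and 1.83, 1.85 and 1.78 on post-heartbeat arrays 1 to 3. The groups did not overlap, but the fold change did not pass the test (95% limma interval -0.090 to 0.52, adjusted p = 0.866). No other gene of this list passed it either, with 0 at an unadjusted limma p under 0.05. The groups were apart in 2 of the 7, Pdhb and Mpc1, where 13.2% of tested genes were apart. Within both slides, 3 of the 7 were higher and 0 were lower, beside 26.4% and 26.7% of tested genes.

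Of the 5 genes of the malate-aspartate shuttle other than the malate dehydrogenases, 4 had a higher post-heartbeat mean (median 0.17), where 46.4% of tested genes did. All 5 were higher within both slides, where 26.4% of tested genes were, with a smallest difference of 0.0043 within slide 2. The largest rise in value was that of Slc25a12, a mitochondrial aspartate-glutamate carrier, which read -1.17, -0.97 and -1.01 on pre-heartbeat arrays 1 to 3 and -0.91, -0.64 and -0.36 on post-heartbeat arrays 1 to 3. The groups were apart, and the log2 fold change was 0.41 (95% limma interval -0.0093 to 0.83, adjusted p = 0.737). Slc25a13, the related carrier, had the lowest value, -0.058 without a block and 0.037 with the slide as a block. At an unadjusted limma p under 0.05 there were 0 genes in this list.

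Both assembly factors of succinate dehydrogenase that were tested, of 4 looked up, had values below 0. These were -0.13 for Sdhaf2, which attaches the flavin to Sdha, and -0.032 for Sdhaf3, which turned to 0.057 when slides were blocked. The groups were apart for Sdhaf2 and overlapped for Sdhaf3, where 13.2% of tested genes were apart. Of 12 genes of mitochondrial mass and protein import, 2 were higher and 10 lower, with a median log2 fold change of -0.068, where 46.4% of tested genes were higher. When slides were blocked, 4 of the 12 were higher and the median was -0.038. The lowest was Hspd1, the matrix chaperonin, with -0.17 (95% limma interval -0.49 to 0.15). In this gene alone of the 12 the groups were apart, beside the same 13.2% of tested genes. The highest was Polrmt, the mitochondrial RNA polymerase, with 0.38 (95% limma interval -0.55 to 1.30). In these lists 0 genes had an unadjusted limma p under 0.05.

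**Figure D4:**
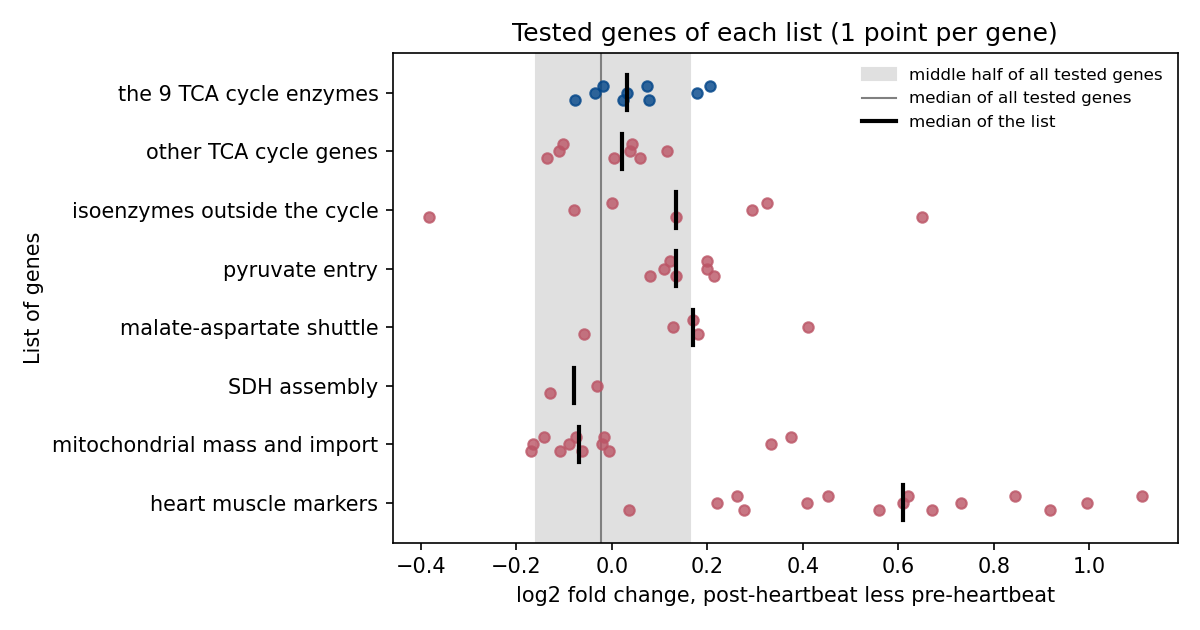
log2 fold change, post-heartbeat less pre-heartbeat, of the tested genes of 8 lists, 1 point for each gene, with the median of each list as a black line; the grey band is the middle part of all tested genes, from the lower quartile of -0.16 to the upper quartile of 0.16, and the grey line their median, -0.022. The heart muscle markers have a median of 0.61, and the medians of the TCA cycle enzymes and of the other TCA cycle genes are 0.032 and 0.021. Me3, among the isoenzymes outside the cycle, is drawn although its probe was mostly at background before the heartbeat.

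Marker lists for the cells in the tissue were read beside these values, and among their genes only Otx2 passed a limma adjusted p under 0.05 without a block. The summed signal of the 15 heart muscle genes, in multiples of the 75th percentile of the array, ranged from 379 to 641 before and from 696 to 841 after the heartbeat. Over the 9 TCA cycle enzymes the same sum ranged from 65.1 to 78.3 and from 68.7 to 71.3. This sum overlapped between the groups, and that of the muscle markers did not. Gene by gene, the groups were apart in 7 of the 15 muscle markers and in 0 of the 9 enzymes, where 13.2% of tested genes were apart. For 9 genes, a count of 0 is near that share. The brightest probes weigh most in such sums, here Suclg1 among the enzymes and Actc1, Tnnt2 and Myl7 among the muscle markers. Of these, Actc1 and Tnnt2 overlapped between the groups, as did Suclg1. The highest heart muscle fold change was that of Myh7, a myosin heavy chain, with 1.11 (limma adjusted p = 0.115, and 0.0223 in the fit blocked by slide).

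Of the other marker lists, 7 of 8 genes of endothelium and endocardium were tested, 6 of them lower (median log2 fold change -0.20). Their summed signal was 15.8 to 16.8 before and 10.9 to 12.7 after the heartbeat. Kdr, the brightest, carried most of this sum, with a log2 fold change of -0.55 (limma adjusted p = 0.284). The groups were apart in this gene alone of the 7, where 13.2% of tested genes were apart. The direction of this list turned when slides were blocked, with 4 of the 7 higher and a median of 0.057. For yolk sac and gut endoderm, 6 of 8 were tested and 5 were lower, or all 6 when slides were blocked. Sox17 and Hnf4a were not well above background. The sums were 47.0 to 50.2 and 31.1 to 39.6, carried mostly by Ttr, the brightest (log2 fold change -0.58, limma adjusted p = 0.388). The groups were apart in 2 of the 6, Ttr and Cdh1, beside the same 13.2% of tested genes. For neural ectoderm, 3 of 6 were tested and 2 were lower, with sums of 15.5 before and 11.7 to 12.2 after the heartbeat, and Otx2 fell by 1.56 on the log2 scale (limma adjusted p = 0.0199), while Pax6 and Six3 were not well above background. For erythroid genes, 5 of 8 were tested and 3 were higher (median 0.28), or 2 when slides were blocked (median -0.0099), with overlapping sums of 2.11 to 4.04 and 3.26 to 5.76, while Hbe1 and Gata1 were not well above background. For paraxial mesoderm, 3 of 6 were tested and all 3 were higher, with sums of 13.2 to 15.5 and 15.8 to 17.1. Meox1, Mesp2 and Uncx were not well above background. Tbx6, which was tested, was well above background on 2 of the 3 pre-heartbeat arrays and on all 3 post-heartbeat arrays. Tbx6 thus entered the test only through the group in which it was higher, and it is included in the count of higher genes of its list. Of the proliferation genes, 5 of 6 were tested and all 5 were lower, or 4 when slides were blocked, with overlapping sums of 51.9 to 72.0 and 56.1 to 58.7. Their part in the values of the TCA cycle enzymes was not tested.

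The tested genes whose signal over the 6 arrays was most like the mean centred profile of the 9 genes were Enpep (Pearson r = 0.994), Hsdl2 (0.993), Hpse (0.993), LOC100364597 (0.992) and Cog6 (0.989). These are descriptions over 6 arrays that share their slides and their 75th percentile. In Enpep, which encodes glutamyl aminopeptidase, pre-heartbeat array 1 was lowest at -2.22 and pre-heartbeat array 2 highest at -1.54, and the post-heartbeat arrays lay between -1.79 and -1.78, the same arrays at both ends as in Mdh1 and Mdh2. Its log2 fold change was 0.14, within the range of the members.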

How the data were processed

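The authors labeled RNA of each sample with cyanine 3 for 1-color Agilent rat arrays and quantified the spots with Feature Extraction 10.7.3.1. The deposited values used here are the processed signal of each spot, a background-subtracted intensity that was not normalized between arrays. The deposited linear ratios, which the authors made with GeneSpring after a shift to the 75th percentile and a baseline transformation, served as an alternative.

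Control and outlier-marked spots were dropped, and log2 signals less the 75th percentile of all non-control spots of the array were averaged over the spots of a probe. Tests covered probes that Feature Extraction called well above background on all 3 arrays in either group, 19299 of 30367 probes and 12685 genes. Any gene name that was not an identifier of a sequence was counted as a symbol, and the probe of the highest mean signal stood for a gene. Of the 10 probes of the members, 9 were matched to the same current symbol through the transcript listed for the probe. The other Ogdh probe was not matched. The array file gives positions on rn4.

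Groups were compared with limma 3.58.1 in R 4.3.3 (Benjamini-Hochberg, threshold 0.05) and single genes by an exact two-sided permutation test. The limma fit without a block was run on simulated data with independent noise on each array and no slide effect. That simulation therefore does not cover the difference between the slides in these data. The members and lists of genes were chosen with earlier results of these data known. All 9 members are named, and of each other list the genes with the largest rise and the largest fall in value and those with an unadjusted limma p under 0.05. Of the marker lists, the highest heart muscle gene, Otx2, Tbx6 and the brightest genes of summed signals were named after their values were seen. So were genes named because a count of them was 5 or fewer. Replicate numbers are in the titles, and samples of the same number were not taken as paired. Their deviations had correlations of 0.65, -0.28 and 0.49. These cannot decide on pairing, because the samples numbered 1 and those numbered 3 share a slide and those numbered 2 do not. Alternatives were a block for the replicate number, a block for the slide, normexp correction (offset 50), quantile normalization, a 75th percentile restricted to probes detected on all arrays, the authors' ratios, no filter or a stricter filter on dim probes, the mean of the probes of a gene, the methods' test, and each array left out in turn. The list of other TCA cycle genes is not complete, as 1 gene is not reported here. The number of arrays limits the precision.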

Additional observations from a re-analysis of the deposited data

How the results depend on the processing

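In every alternative, 0 of the 9 TCA cycle enzymes passed an adjusted p under 0.05 (smallest limma adjusted p 0.433, smallest unadjusted limma p 0.0830). Over 135 values of single genes, 125 kept their sign and 10 turned, 7 of these with 1 array left out. The replicate block and the changed filters on dim probes left each fold change as it was, so their values could not turn. The mean of the probes could alter only Ogdh. The 125 therefore include values whose sign was fixed in advance. With all arrays, the slide as a block turned Cs to 0.031 and Idh3g to 0.042, and quantile normalization turned Suclg1 to 0.0041. Leaving out single arrays gave log2 fold changes from -0.10 to 0.033 for Cs, from -0.25 to 0.040 for Idh3g, from -0.077 to 0.023 for Suclg1, from -0.077 to 0.12 for Mdh1 and from -0.081 to 0.15 for Mdh2. The causes were not tested. Idh3a, Ogdh, Sdha and Sdhb stayed above 0 in every alternative run, with lowest values of 0.043, 0.14, 0.0025 and 0.045. For Sdha the lowest value came without pre-heartbeat array 1, and for Idh3a without pre-heartbeat array 3.

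The median of the 9 genes ranged from -0.035 without pre-heartbeat array 1 to 0.12 without pre-heartbeat array 2, and the number of them that were higher from 4 to 9 with the same arrays left out. Of the 8 other genes of the cycle, 2 to 5 were higher with an array left out, 2 without pre-heartbeat array 3 and 3 without pre-heartbeat array 1 or post-heartbeat array 2. The replicate block, with the replicate number as a term in limma, cannot alter a fold change, as each number has 1 array in each group. The median of 0.032 and the 6 of 9 genes higher are thus those of the fit without a block, and 0 genes passed the threshold. The replicate block changed no call of a member, and it raised the number of probes called from 27 to 144, while the slide as a block raised it to 312. The numbers 49, 14, 15, 13, 1 and 32 were found with normexp background correction, quantile normalization, the 75th percentile restricted to probes detected on all arrays, the authors' ratios, no filter and a filter on all arrays, and 0 to 2 with an array left out.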
